A study of Mus musculus with 3 samples.

Results

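The genes described here are 9 enzymes that oxidize or reduce foreign compounds, alcohols and aldehydes: the flavin-containing monooxygenases *Fmo1*, *Fmo2* and *Fmo5*, the alcohol dehydrogenases *Adh1* and *Adh7*, the carbonyl reductases *Cbr2* and *Cbr3*, the aldehyde dehydrogenase *Aldh3a1* and the aldehyde oxidase *Aox1*. They were listed by name around *Fmo2*, a gene that the study itself singled out on these arrays, and were chosen by the differences in signal between the stages, which had been seen when the list was made. Their ratios are therefore a description of the 3 arrays and support nothing beyond it. All 9 were found, out of 18193 genes with a probe set, and they are covered by 16 probe sets. Maxillae of ICR mouse embryos were removed at E14, kept in rotating suspension culture in BGJb medium with antibiotics under oxygen-rich gas, and RNA of their palatal tissue was hybridized to 3 Affymetrix arrays that cover the mouse genome. Tissue at the shelf edge was taken before fusion, at 5 h of culture, and tissue at the midline was taken at 24 h, during fusion, and at 60 h, after it. Another passage of the study's methods, like the labels, names the edge of the palate at each stage instead. That passage states 5 samples for each stage, without saying how they relate to the 3 arrays. The labels give the sex as female for all 3 arrays and do not give the number of palates behind an array. The dissected pieces hold epithelium and mesenchyme together, and stage, hours in culture and the piece dissected change together and cannot be told apart.

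Flavin-containing monooxygenases use NADPH, FAD and oxygen to add an oxygen atom to the nitrogen or sulfur of drugs and other compounds. Alcohol dehydrogenases of this family oxidize ethanol and retinol, carbonyl reductases turn ketones and quinones into alcohols with NADPH, and aldehyde dehydrogenases and aldehyde oxidases carry aldehydes on to acids. In adult mammals these enzymes are best known from liver, lung, stomach, cornea and nasal mucosa, where epithelial cells meet foreign compounds.

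The values are MAS5 signals, scaled here to the same trimmed mean on each array by factors of 1.11 before, 0.918 during and 0.986 after fusion. The floor, the 95th percentile of 81 probe sets for sensory receptors of smell, pheromones and bitter taste, was 19.4, 13.3 and 14.7 on that scale. A signal under the floor was raised to it, so that a ratio with 1 signal under the floor is a bound ("at least") and a ratio with both under it is not given. Of several probe sets of a gene, the brightest stands for it. With 1 array per stage there was no replicate, no test and no p-value, and the only spread at hand is that between probe sets of the same gene, with an SD on the log2 scale of 0.37 between the first 2 stages, 0.46 between the first and the last and 0.44 between the last 2. The signal of the 5′ control probe set of *Gapdh* over that of its 3′ probe set was 1.33, 1.39 and 1.35. Of all genes past 2-fold, 63.1% were higher during than before fusion, a share that was 27.2% when the poly-A controls set the scale and 87.1% when the deposited values were left unscaled. For the array after fusion against that before it the share was 56.7%, with 27.0% and 70.9% under the same alternatives. For after against during fusion it was 63.2%, with 44.1% when hybridization controls set the scale and 76.4% when the median did.

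Before fusion 5 of the 9 genes lay above the floor, during fusion 7 and after fusion all 9. The signal was highest after fusion for 8 of them, and *Fmo1* alone was highest during fusion. During fusion 7 of the 9 were over 2-fold higher than before it, among a background of 5.45% of all genes, and none was over 2-fold lower (3.19% of all genes). The other 2, *Fmo5* and *Aox1*, were under the floor on both of these arrays and have no ratio. When the poly-A controls set the scale, 4 were over 2-fold higher during fusion, with *Fmo1*, *Adh7* and *Aldh3a1* falling short. After fusion 7 were over 2-fold higher than before fusion (12.6% of all genes) and none was lower (9.58%). Of the remaining genes *Fmo1* was measured within 2-fold, and *Aox1* has only a bound, which does not reach 2-fold. Between the arrays during and after fusion 5 were higher after fusion (8.73% of all genes), and none was lower (5.08%). *Fmo1*, *Fmo2* and *Cbr3* were measured within 2-fold, and *Aox1* again has only a bound below 2-fold. Counted by probe set, 11 of the 16 were over 2-fold higher during than before fusion (4.72% of all probe sets) and none lower (3.22%). The counts were 11 and 0 after fusion against before it (9.69% and 10.1% of all probe sets), and 7 and 0 after against during fusion (6.61% and 7.08%). Over the genes with a ratio the median log2 ratio was 1.64 for the second stage and 2.49 for the last, both against the first, where all genes had -0.05 and -0.09. From during to after fusion it was 1.34, where all genes had -0.03. Bounds entered these medians of the members at their own value, for 2 of 7, 4 of 9 and 2 of 9 genes in that order. Each of these medians is therefore itself a lower bound. Since the list was drawn up with these ratios known, nothing is read from the distance to the background, and since both ratios to the first stage share its single array, they are not independent. In whole tissue, more cells of a type and more RNA per cell cannot be told apart.

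**Figure D1:**
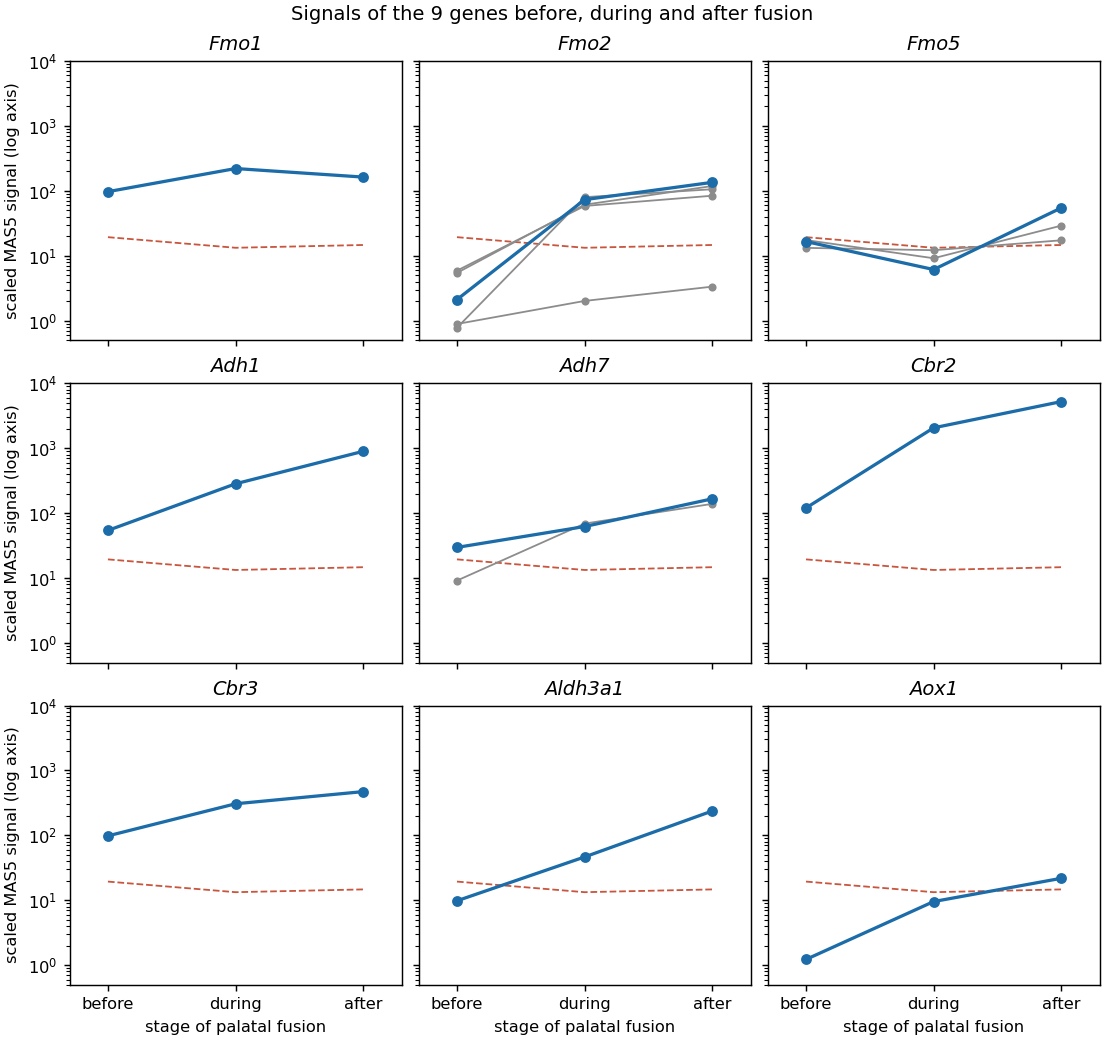
Scaled MAS5 signal (log axis) of every probe set of the 9 genes by stage, with a single array for each. The blue line is the brightest probe set of a gene, grey lines are its other probe sets and the dashed line joins the floors of the arrays (19.4, 13.3 and 14.7); *Cbr2* goes from 120.2 to 5224, above the floor throughout, and *Aox1* passes the floor only after fusion.

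Among the monooxygenases, *Fmo2*, the lung form of the family, was not measurable before fusion by any of its 5 probe sets. Their deposited signals on that array were 5.3, 0.7, 1.9, 4.9 and 0.8. During fusion 4 of the 5 had scaled signals of 58.7, 80.2, 73.4 and 61.3, and after fusion the same 4 had 84.3, 106, 136 and 119. All 4 were higher at both later stages, with bounds of at least 4.35-fold to at least 6.99-fold for after over before fusion. Between the arrays during and after fusion, where all 4 were measured on both sides, their ratios were 1.44, 1.32, 1.85 and 1.94, each under 2-fold. The fifth probe set had signals of 0.892, 2.02 and 3.35 and lay under the floor on every array. For during over before fusion the bounds of the 4 ran from at least 3.03-fold to at least 4.13-fold. One of the 4 carries the suffix that marks probes shared with other transcripts. Its ratio was the lowest for after over during fusion, while its bound was the highest for during over before fusion. How far *Fmo2* was above its level before fusion depends on the floor: without one, the ratios of the brightest probe set would be 34.6 and 64.0, and with a floor at the median of each array they would be at least 2.68 and at least 4.94.

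To set the regulatory sequence beside these values, the 300 bases around the annotated transcription start (250 before, 50 after) of *Fmo2* are shown from RefSeq on GRCm38.p6, with the only match in this window to 5 motifs in capitals. RefSeq gives *Fmo2* another start, with a window at chr1:162898444-162898743 on the same strand that is not printed.
Fmo2, chr1:162898709-162899008 (- strand): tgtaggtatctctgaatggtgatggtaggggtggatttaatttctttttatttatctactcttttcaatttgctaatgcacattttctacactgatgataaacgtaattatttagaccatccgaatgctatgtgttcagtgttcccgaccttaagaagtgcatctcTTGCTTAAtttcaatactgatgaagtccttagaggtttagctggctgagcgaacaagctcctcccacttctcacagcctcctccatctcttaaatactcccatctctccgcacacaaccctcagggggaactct
The match, TTGCTTAA, begins at position -84 from the start and has the form TTGCNNAA of a C/EBP site. The window of the other start also held 1 match, TTGCTCAA of the same form, from position -69. The motifs searched on both strands were the antioxidant response element core TGACNNNGC, the AP-1 site TGANTCA, the xenobiotic response element core GCGTG, the TATA box TATAAA and TTGCNNAA. Of 32851 such windows over all genes, 12.4%, 7.81%, 32.4%, 13.6% and 10.8% held them. A match of these letters is a description and not a binding site.

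*Fmo1* is the gene next to *Fmo2* on chromosome 1 and had another profile. It encodes the main form of the family in human fetal liver. The signals of its single probe set were 97.4 at the first stage, 221 at the second and 163 at the last. It was thus above the floor from the start, 2.27-fold higher during than before fusion and 1.68-fold higher after than before. From during to after fusion it was 1.35-fold lower, a log2 ratio of -0.44 that is no larger than the SD between probe sets of a gene. Under 6 scalings this ratio ran from 0.647 to 0.817, and that of *Fmo2* over the same interval from 1.62 to 2.04. These scalings shifted the median log2 ratio of all genes by -0.19 to 0.15. That is too little to reverse the ratio of *Fmo1*, so the range is no check on its direction. The ratio of *Fmo1* during fusion was 1.84 with the poly-A controls. *Fmo4*, on the other side of *Fmo1*, had signals of 18.8, 12.1 and 8.78 and lay under the floor on each array.

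*Fmo5*, which inserts oxygen into ketones rather than onto nitrogen and lies on chromosome 3, was above the floor only after fusion. The signals of its brightest probe set at the 3 stages were 16.6, 6.15 and 54.8. The first 2 values are under the floor, so that it was at least 2.83-fold higher after than before fusion and at least 4.12-fold higher after than during fusion. Its other 2 probe sets had signals of 29.2 and 17.4 after fusion and were under the floor on the earlier arrays. The brighter of these gives bounds of 1.51-fold over the first array and 2.19-fold over the second. The dimmer, at 1.18 times the floor, gives no usable bound against the array before fusion, whose floor was higher. The brightest probe set is the one with the suffix for shared probes, and a call over 2-fold against the array before fusion rests on it alone. The bound of 4.12 was 1.85 with the floor at each array's median, 2.83 with a common floor and 2.19 for the median of the probe sets.

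**Figure D2:**
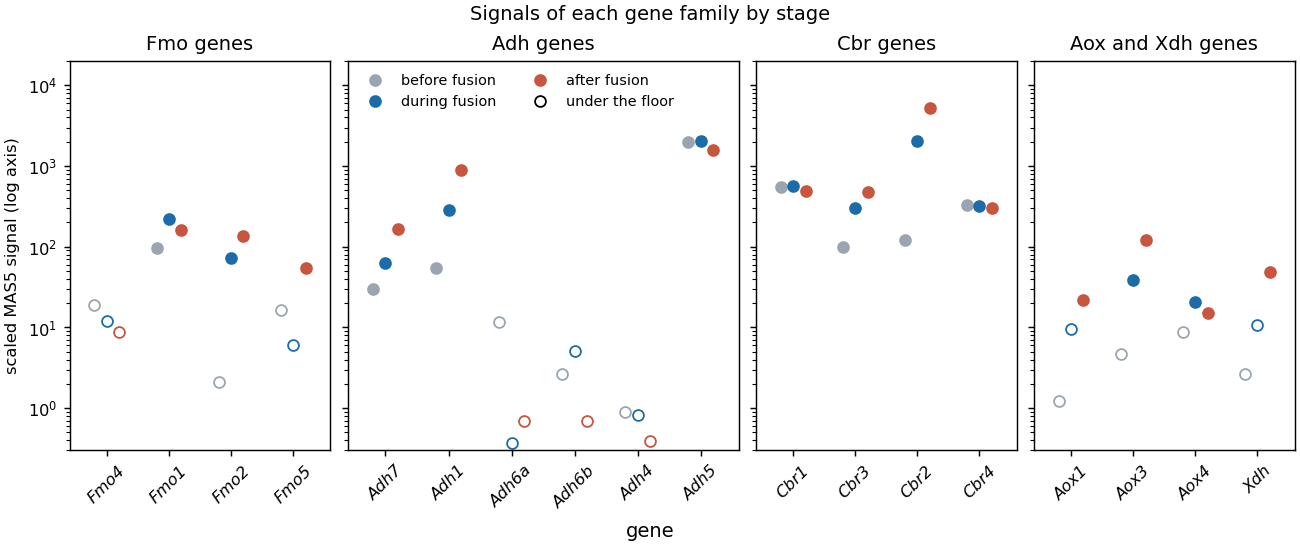
Scaled MAS5 signal (log axis) for the brightest probe sets of Fmo, Adh, Cbr, Aox and Xdh genes, in grey before, blue during and red after fusion, with open symbols for signals under the floor. Within a gene the 3 symbols can be compared; those of *Adh5*, *Cbr1* and *Cbr4* lie within 2-fold of each other, while those of *Adh1*, *Adh7*, *Cbr2* and *Cbr3* are spread farther apart.

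The alcohol dehydrogenases *Adh1* and *Adh7* are neighbours on chromosome 3, and both were higher at each later stage. *Adh1*, the class I enzyme that oxidizes ethanol and retinol, gave 54.2 before fusion, 283 during it and 896 afterwards. It was 5.23-fold higher during and 16.5-fold higher after than before fusion, and 3.17-fold higher after than during fusion. Among genes above the floor on both arrays its ratio to the first stage was number 56 of 12124 at the second stage and number 47 of 12007 at the last. *Adh7*, the class IV enzyme of stomach and upper digestive tract epithelium, had a signal of 29.7, 62.2 and 166 for the brighter of its 2 probe sets. Against the array before fusion it was 2.10-fold higher during and 5.60-fold higher after fusion, and the last step was 2.67-fold. The other probe set was under the floor before fusion (9.14) and reached 69.0 and then 139, which gives bounds of 3.56-fold and 7.16-fold. The probe sets thus differ in the first step and less so in the second, where the ratio of the dimmer was 2.01. The ratio of 2.10 lies close to 2-fold, and it passed 2-fold under 3 of 6 scalings, with 1.70 as the lowest value.

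The promoter windows of the 2 neighbouring genes are shown in the same way, since both genes were higher at the later stages.
Adh1, chr3:138277335-138277634 (+ strand): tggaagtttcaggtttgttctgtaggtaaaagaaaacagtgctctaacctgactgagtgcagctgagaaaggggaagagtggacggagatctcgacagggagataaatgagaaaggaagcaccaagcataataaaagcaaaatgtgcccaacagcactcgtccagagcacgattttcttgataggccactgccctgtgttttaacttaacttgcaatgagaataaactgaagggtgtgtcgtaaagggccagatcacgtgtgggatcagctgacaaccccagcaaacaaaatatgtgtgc
Adh7, chr3:138217523-138217822 (+ strand): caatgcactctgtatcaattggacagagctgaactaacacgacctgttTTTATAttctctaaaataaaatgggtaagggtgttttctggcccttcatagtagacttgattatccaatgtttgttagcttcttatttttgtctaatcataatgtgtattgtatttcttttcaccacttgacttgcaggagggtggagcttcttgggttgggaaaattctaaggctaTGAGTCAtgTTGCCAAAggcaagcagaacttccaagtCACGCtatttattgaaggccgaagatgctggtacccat
The window of *Adh1* held none of the 5 motifs. That of *Adh7* held an AP-1 site, TGAGTCA, from position -25, followed by TTGCCAAA from -16, a xenobiotic response element core read on the other strand from position 12 after the start, and a TATA box motif, also on the other strand, from -202. None of these matches overlapped another.

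The rest of the alcohol dehydrogenase cluster did not share this course. *Adh5*, which detoxifies formaldehyde bound to glutathione and is used in nearly all tissues, had signals of 2010, 2028 and 1604, with ratios of 1.01 and 0.798 to the first of these. *Adh6a*, *Adh6b* and *Adh4* lie between *Adh1* and *Adh5* in the cluster and were under the floor on all 3 arrays. *Adhfe1*, an alcohol dehydrogenase of another structural class, passed the floor only after fusion, with a signal of 18.9. Of the 7 genes of this family, 4 had a ratio for after over before fusion. The 2 over 2-fold higher were the members *Adh1* and *Adh7* (12.6% of all genes), and without them the count was 0 of 2.

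*Cbr2* is known as the lung carbonyl reductase of the mouse. Among the 5 members measured on both sides it had the largest ratios to the array before fusion. These also exceeded the bounds of the others, which does not rank *Cbr2* above those genes. Without a floor the ratios of *Fmo2* would be 34.6 during and 64.0 after fusion. The single probe set of *Cbr2* gave 120.2 before fusion, 2060.2 during it and 5224 afterwards. All 3 signals were above the floor, so that its ratios are measured on both sides: 17.1 for the first step, 43.5 for both together and 2.54 for the last. The first 2 ranked 9 of 12124 and 13 of 12007 genes. Over 6 scalings the ratio ran from 13.9 to 20.8 during and from 33.2 to 49.1 after fusion. Of the whole log2 difference between before and after fusion, 75.3% was already present on the array during fusion. The promoter window of *Cbr2*, shown because of these ratios, held none of the 5 motifs and is printed in lower case throughout.
Cbr2, chr11:120731972-120732271 (- strand): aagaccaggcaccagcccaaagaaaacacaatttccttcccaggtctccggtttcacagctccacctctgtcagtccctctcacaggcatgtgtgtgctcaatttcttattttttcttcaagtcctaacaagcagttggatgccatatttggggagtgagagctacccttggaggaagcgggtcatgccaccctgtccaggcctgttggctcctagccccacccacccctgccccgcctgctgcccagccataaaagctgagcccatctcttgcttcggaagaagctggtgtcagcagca

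*Cbr3*, a monomeric carbonyl reductase of the cytosol, gave 98.1, then 306 and then 472. It was 3.12-fold higher during and 4.81-fold higher after than before fusion, and 1.54-fold higher after than during fusion. As with *Cbr2*, most of the log2 difference (72.5%) had been reached by the array during fusion. Its neighbour on chromosome 16, *Cbr1*, encodes a closely related enzyme and had signals of 558, 571 and 495, with ratios of 1.02 and 0.886 to before fusion. *Cbr4*, a mitochondrial member, had ratios of 0.961 and 0.909. *Dcxr*, which encodes a related reductase and is the neighbour of *Cbr2* on chromosome 11, had signals of 193, 889.7 and 1240.1 and ratios of 4.61 and 6.42. The window of *Cbr3* held none of the 5 motifs. Of the 8 windows found for 7 of the 9 genes, none held the antioxidant response element core (12.4% of all windows). An AP-1 site (7.81%), a xenobiotic response element core (32.4%) and the TATA box motif (13.6%) were each in 2. Both TATA box matches lay on the other strand, from -195 in *Fmo5* and -202 in *Adh7*. TTGCNNAA (10.8%) was in 3, among them both windows of *Fmo2*. For *Fmo1* and *Aldh3a1* no window was found.

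Of the 2 enzymes that oxidize aldehydes, *Aldh3a1*, abundant in cornea and stomach, had signals of 9.81, 46.5 and 237 in the order of the stages. The first value is under the floor, which leaves bounds of 2.40-fold for the array during fusion and 12.2-fold for that after it. Its measured step came last, a ratio of 5.10 from during to after fusion, the highest of the 7 members measured on both of these arrays. The bound of 2.40 became 1.94 when poly-A controls set the scale and 1.69 when the floor was each array's median. Without a floor the ratios would be 4.74 and 24.2. Its neighbour on chromosome 11, *Aldh3a2*, which oxidizes fatty aldehydes, had signals of 105, 123 and 173 and ratios of 1.17 and 1.66 to before fusion.

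*Aox1*, a molybdenum- and flavin-containing oxidase of aldehydes and of nitrogen heterocycles, was nearest to the floor. The signals of its probe set were 1.23, 9.55 and 21.8, and only the last was above the floor, by 1.48 times. The bounds, at least 1.12-fold higher after than before and at least 1.64-fold higher after than during fusion, do not reach 2-fold. With the poly-A controls the first of these was 0.858, which gives no direction, and without a floor the ratios would be 17.8 and 2.28. *Aox3*, the next gene in the cluster, had signals of 4.68, 38.9 and 121 with bounds of 2.01-fold and 6.24-fold over the first. *Aox4* had 20.8 during and 15.1 after fusion, close to the floor on both arrays, and was under it before fusion. *Xdh*, the related xanthine dehydrogenase of purine breakdown, passed the floor only after fusion, with a signal of 48.7 and a bound of at least 2.51-fold. *Mocos*, which adds the sulfur that these enzymes need to their molybdenum cofactor, had signals of 20.4, 32.8 and 62.5 and a ratio of 3.07 after fusion. *Aox2* was not analysed here.

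**Figure D3:**
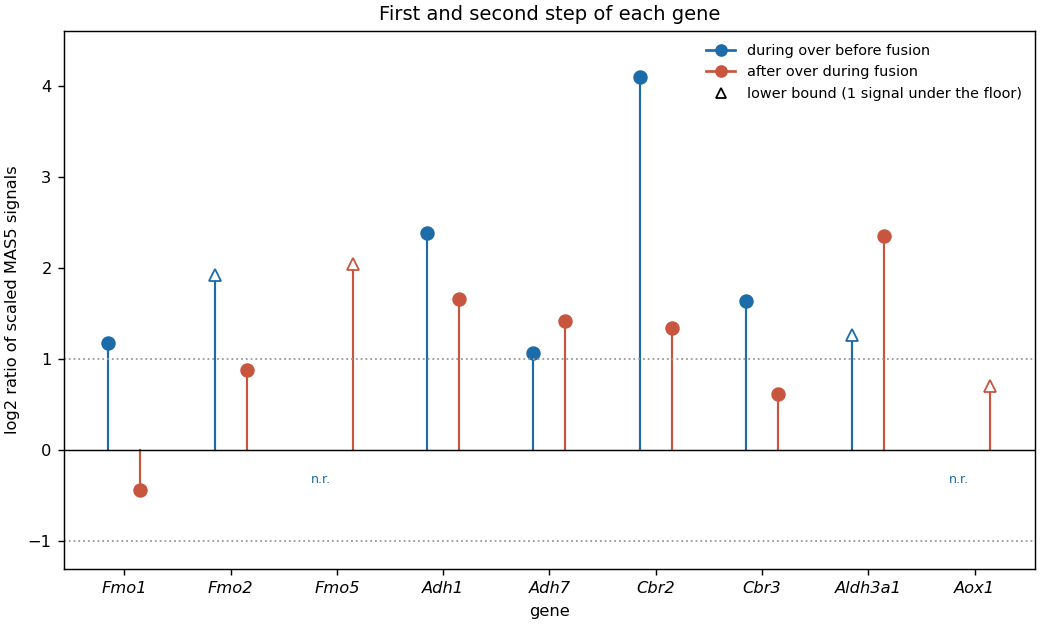
Log2 ratio of scaled MAS5 signals for during over before fusion (blue) and after over during fusion (red), for each of the 9 genes. Filled circles were measured on both arrays and open triangles are lower bounds. The letters n.r. mark a pair with both signals under the floor, and dotted lines mark 2-fold. The first step is the larger for *Cbr2*, *Cbr3*, *Adh1*, *Fmo1* and *Fmo2*, and that of *Aldh3a1* is only a bound. For *Adh7* the second step is the larger by the probe set drawn, but the first is the larger by its other probe set.

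The share of the difference already present during fusion varied among the genes. *Cbr2*, *Cbr3* and *Adh1* were measured on all 3 arrays. The array during fusion held 75.3%, 72.5% and 58.9% of their log2 difference between before and after fusion. For the brighter probe set of *Adh7* the share was 43.0%. Its dimmer probe set had a first step of at least 1.83 on the log2 scale and a second of 1.01. With unscaled values the steps of the brighter were 1.35 and 1.31, so which step of *Adh7* was larger is not settled. For *Fmo2* and *Aldh3a1* the first step is a bound, at least 1.92 and at least 1.26 on the log2 scale, and the second was measured at 0.89 and 2.35. *Fmo5* and *Aox1* have only their second step, with bounds of at least 2.04 and at least 0.71. These are steps between single arrays, and the spread between probe sets of a gene is 0.37 and 0.44 for the same intervals.

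**Figure D4:**
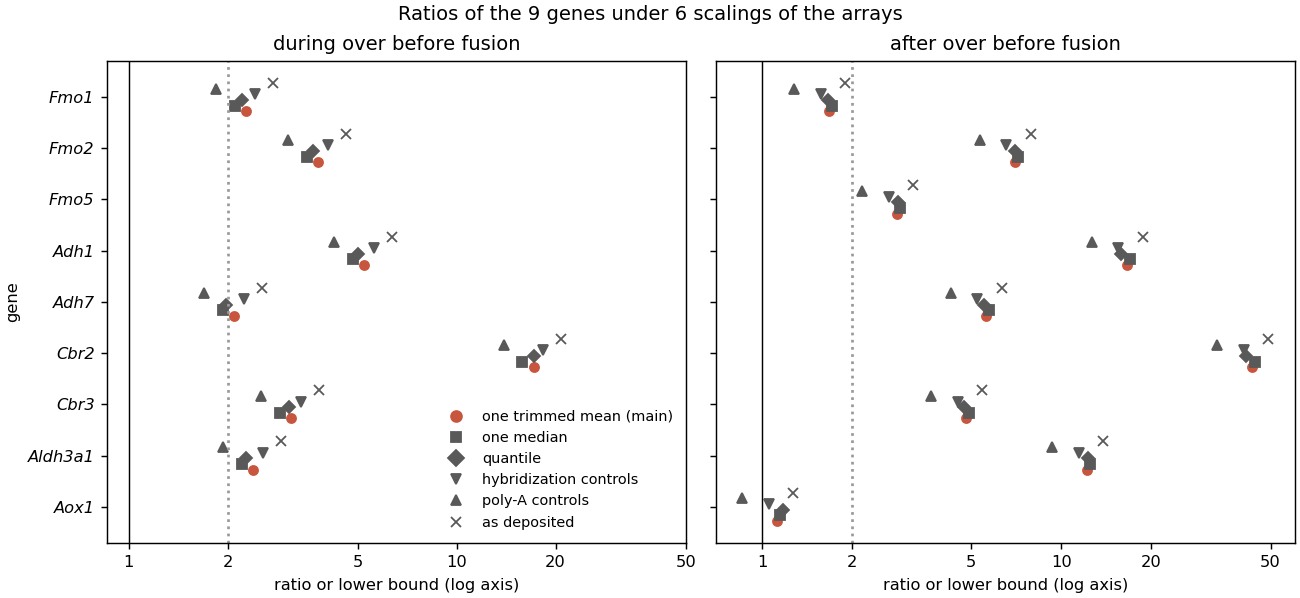
Ratio, or lower bound, of each of the 9 genes (log axis) during and after fusion to before fusion, with the arrays scaled in 6 ways. Dotted lines mark 2-fold and solid lines equality. Scalings by a factor common to an array shift all genes together, which quantile normalization does not. *Adh7*, *Aldh3a1* and *Fmo1* fall below 2-fold during fusion under at least 1 scaling. *Cbr2* lies farthest right under each, but the values of *Fmo2*, *Fmo5*, *Aldh3a1* and *Aox1* are lower bounds, which do not rank those genes below it.

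Scaling the arrays by another factor moved all genes at once. From before to during fusion the median log2 ratio over all genes moved by -0.11 when medians were made equal, by 0.10 under the hybridization controls, by -0.31 under the poly-A controls and by 0.28 without scaling. From before to after fusion the last 3 of these moved it by -0.10, -0.39 and 0.18. From during to after fusion equal medians moved it by 0.15, the hybridization controls by -0.19 and no scaling by -0.10. Taken relative to the median of all genes, the ratios during fusion ran on the log2 scale from 1.11 for *Adh7* to 4.15 for *Cbr2*. A factor common to an array cancels in such a value. It therefore barely differs between scalings by such a factor, by its construction, and is no check on them. Quantile normalization is not such a factor, and over the 6 scalings the value of *Adh7* ran from 1.04 to 1.12.

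Beyond the 9 genes, the families and pathways they belong to were mixed. Their counts stand beside the shares of all genes, 5.45% higher and 3.19% lower during fusion and 12.6% and 9.58% after fusion, and nothing particular to a list is read from them. Leaving the members out, 3 of 21 carbonyl reductases and related reductases with a ratio were over 2-fold higher and 1 was lower during fusion, and 6 of 21 were higher and none lower after fusion, with a median log2 ratio of 0.09. Besides *Dcxr*, the 6 were *Nqo2* (5.51) and *Nqo1* (3.72), which reduce quinones, *Akr1c18* (at least 3.22), *Akr1b10* (2.35) and *Dhrs7* (2.35). *Akr1c21* was at least 2.03-fold lower during fusion. *Akr1a1*, *Akr1b8*, *Akr1e1*, *Akr7a5*, *Dhrs1*, *Dhrs3*, *Dhrs4*, *Dhrs7b* and *Dhrs11* were measured on all 3 arrays with ratios of 0.524 (*Dhrs4*) to 1.62 (*Dhrs11*) after fusion. *Akr1c13*, *Akr1c14* and *Hsd11b1* were above the floor only during and after fusion, with bounds under 2-fold. Of 17 other aldehyde dehydrogenases 3 were higher and 3 lower during fusion, and of 18 after fusion 4 were higher and 2 lower, with a median of -0.06. *Aldh1a1*, which makes retinoic acid from retinaldehyde, had a signal of 22.6, then 934 and 1922, and its relative *Aldh1a7* 229, 989 and 1600.0, whereas *Aldh1a2*, another retinaldehyde dehydrogenase, had 512, 163 and 163. *Aldh1a3*, the third of these, had a ratio of 3.89 after fusion, *Aldh1l1* a bound of 2.29, and *Aldh1l2*, a mitochondrial enzyme of folate metabolism, was at 0.482. Of 10 other genes of molybdo-flavoenzymes and their cofactor 4 were higher after fusion, *Aox3*, *Xdh*, *Mocos* and the amidoxime reductase gene *Mtarc1* (at least 2.84-fold), and 1, the sulfite oxidase gene *Suox* (2.19-fold), was lower. *Mocs2*, *Mocs3* and *Gphn*, which build the cofactor, and *Mtarc2* had ratios of 0.588, 0.975, 1.51 and 0.996.

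Genes of the NRF2 pathway, by which cells answer oxidants and electrophiles, were also followed. Of 22 besides *Cbr3*, 8 were past 2-fold upward at the second stage and 15 at the last, with 0 past it downward. The shares of all genes were 5.45% and 12.6% upward and 3.19% and 9.58% downward. The median log2 ratios of the list were 0.63 and 1.83, and the list was drawn up with earlier results of these arrays known. The largest were *Ephx1*, an epoxide hydrolase, with ratios of 12.1 and 26.9, and the glutathione transferase gene *Gsta3*, with 9.22 and 13.4. *Hmox1*, heme oxygenase, had 2.36 and 7.09, and *Osgin1* had bounds of 2.41 and 7.01. *Nfe2l2*, which encodes NRF2 itself, had signals of 435, 666 and 1058, and *Keap1*, its inhibitor, 304, 266 and 275. The AHR pathway, the response to dioxin-like compounds that includes *Aldh3a1* in other settings, divided: of 7 genes besides *Aldh3a1*, 2 were higher and 1 was lower after fusion. *Ahr* had a ratio of 2.32 and *Nqo1* 3.72, while the cytochrome genes *Cyp1b1* and *Cyp1a1*, its usual targets, had 0.465 and 0.553, the latter within 2-fold. *Tiparp* and *Ahrr*, also targets, had 1.55 and 1.49. Of 14 genes of NADPH supply and electron transfer, on which monooxygenases and reductases draw, 2 were higher and none lower after fusion, the malic enzyme genes *Me1* (4.93) and *Me2* (2.21), with a median of -0.11. This is close to all genes, with 12.6% higher and a median of -0.09. Of the NRF2 list 3 genes also stand in another of these lists, and *Nqo1* is counted in each of 3.

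**Figure D5:**
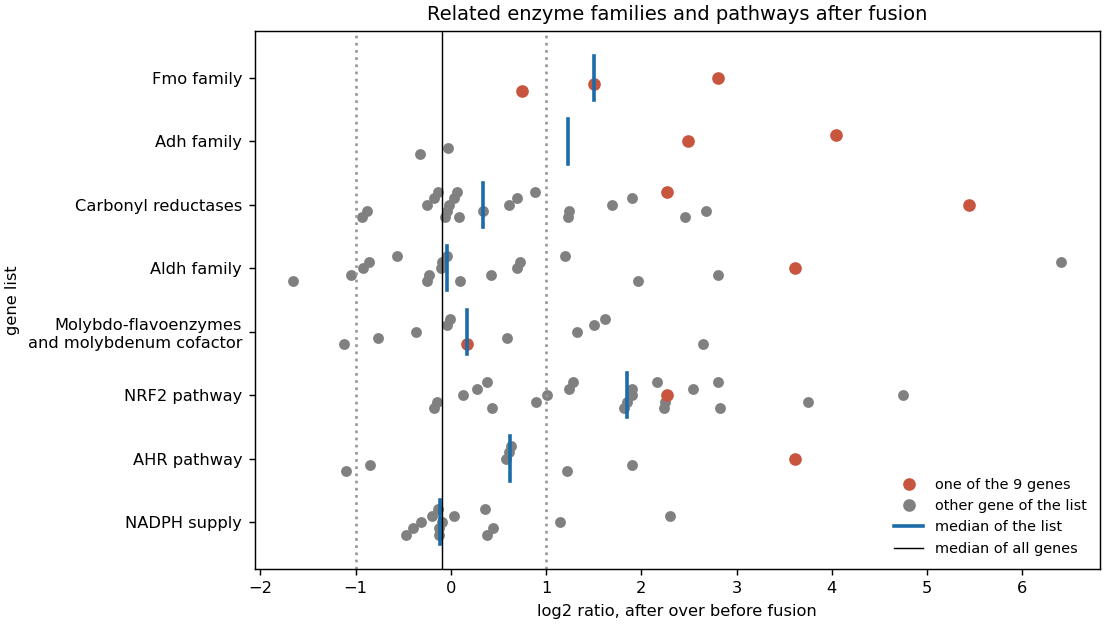
Log2 ratio for after over before fusion of each gene with a ratio or bound in 8 lists of related families and pathways, with the 9 genes in red, the median of each list as a blue bar and the median of all genes as a black line (-0.09). Dotted lines mark 2-fold, and points are offset vertically for legibility. With bounds taken at their own value, the NRF2 list has the highest median (1.85, *Cbr3* included).

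Markers of several cell types moved over the same arrays. Some listed markers had no probe set in use here. A probe set was at hand for 7 of 8 multiciliated, 2 of 5 osteoblast and 3 of 5 adipocyte markers. The same held for 3 of 5 olfactory epithelium and 3 of 4 erythroid markers. The shares of all genes past 2-fold were 5.45% higher and 3.19% lower during fusion, and 12.6% and 9.58% after it. Of 6 epithelial markers 4 were over 2-fold higher after than before fusion. Their summed signal was 8434 before, 15055 during and 21706 after fusion. All 4 markers of stratified oral epithelium were higher at both later stages (1979, 9001 and 12299). Of 7 markers of airway secretory epithelium, *Bpifa1* and *Cyp2f2* were over 2-fold higher at both later stages (the list's signals sum to 133, 4694 and 9131), while the defining club cell gene *Scgb1a1* and *Muc5ac* lay under the floor on every array. All 7 multiciliated cell markers with a probe set were higher, with sums of 181, 3116 and 20613. Of 7 fibroblast markers 3 were higher and 1 was lower after fusion, and all 5 macrophage markers were higher, with sums of 416, 867 and 2167. Markers of the palatal mesenchyme were all above the floor on each array and lower after fusion in 5 of 8, with sums of 7212, 3550 and 2475. Both osteoblast markers with a probe set were higher, *Ibsp* by at least 125-fold and at least 241-fold and *Sp7* 4.12-fold and 3.62-fold. Their sums were 50.3, 2612 and 4839. Of 3 adipocyte markers *Fabp4* was higher (at least 5.49-fold after fusion) and *Adipoq* lay under the floor on every array, with sums of 16.3, 57.0 and 139. All 4 skeletal muscle markers were lower at both later stages, with sums of 965, 211 and 81.4. Of 3 erythroid markers the 2 with a ratio were lower after fusion, *Hba-x* 30.6-fold, with sums of 14468, 9687 and 1823. Of 4 endothelial markers 2 were lower during and 1, *Tek* (3.04-fold), after fusion, with sums of 456, 242 and 245. Of 3 olfactory epithelium markers none was past 2-fold, with sums of 312, 237 and 239. Of 4 hepatocyte markers 3 were under the floor on each array, *Alb* on all of them. The part of these cell types in the levels of the 9 genes was not tested.

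Over the 3 arrays many genes share a profile, and a gene with extreme ratios has few others near it by construction. Likeness therefore says little for any member, and no cell source is read from it. Measured as the distance between pairs of log2 ratios to the array before fusion, among 11483 named genes above the floor on all arrays, 316 lay within 0.5 of *Fmo1*, 101 within 0.5 of *Adh7* and 85 within 0.5 of *Cbr3*. The nearest were *Maf* (ratios of 2.27 and 1.66) and *Cpt1c* (2.32 and 1.68) for *Fmo1*, *Akap6* (1.99 and 5.47) and *Tspan2* (2.03 and 5.36) for *Adh7*, and *Ms4a7* (3.19 and 4.87) and *Cadps2* (3.15 and 4.64) for *Cbr3*. Only 7 lay that near to *Adh1*, of which *Cd68* (4.84 and 17.0) and *Serpinb11* (6.22 and 17.1) were nearest. For *Cbr2* there were 3, with *Ccno* (17.7 and 46.2) and *Upk3a* (18.5 and 34.6) the nearest.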

How the data were processed

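Total RNA from palatal tissue at 3 stages was hybridized to 3 arrays, 1 per stage. Per the labels and the study's methods, the authors computed MAS5 signal intensities in GeneChip Operating Software with background correction; the deposited intensity values are linear, 1 per probe set, and no scaling target is stated. The table holds 45101 probe sets, 64 of them controls; 34945 name 1 gene (34741 matched by gene ID to GRCm38.p6 for current symbols), 932 several and 9160 none. Depth has no meaning here; the number of arrays limits the precision. Arrays were scaled to the same mean with 2% trimmed at each end. A difference was counted past 2-fold. The steps were tested on simulated data. Python 3.11.15, numpy 2.4.6, pandas 2.3.3 and matplotlib 3.10.9 were used. The members, lists, markers and alternatives were chosen with earlier results of these data known, and the motifs after the values were seen. Named are all members, their family genes above the floor, up to 4 genes of each other list that moved most and up to 2 the other way, the nearest 2 genes in profile for members measured on all 3 arrays, and, beyond that rule and after their values were seen, neighbouring genes in a cluster and genes that regulate a pathway. The alternatives were 5 other scalings, 3 other floors, a median in place of the brightest probe set, and thresholds of 4-fold and 1.5-fold.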

Additional observations from a re-analysis of the deposited data

How the results depend on the processing

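With 1 array per stage no array could be left out. No paired analysis was possible because each stage has a single array. Of 223 ratios of the 9 genes recomputed under alternatives, 205 moved by less than the SD between probe sets of a gene, 18 by more, and none of those past 2-fold changed sign. This tally is no measure of robustness. Scalings by a factor common to an array shifted every ratio by less than that SD. Another floor leaves genes above it as they were, and so does the median for genes with a single probe set. The count of members over 2-fold higher during than before fusion, 7, became 4 with the poly-A controls and 2 at a threshold of 4-fold. None was lower, against 1, *Fmo5*, without a floor, where both signals lie in the background. The count for after over during fusion, 5, became 2 at 4-fold and 8 at 1.5-fold. The count for after over before fusion, 7, lay between 6 and 8 under all alternatives. Over all genes, the 760 over 2-fold higher and 444 lower during fusion became 429 and 1150 under the poly-A controls, 1361 and 202 unscaled, 2174 and 1834 without a floor, and 638 and 247 with the floor at the median. The 1758 higher and 1341 lower after fusion became 1142 and 3089 with the poly-A controls, 2163 and 888 as deposited, and 3141 and 2816 without a floor. The 1252 higher and 728 lower for after over during fusion became 1553 and 479 with the arrays scaled to their median, 960 and 1218 with the hybridization controls, and 2610 and 2031 without a floor. At 4-fold the 3 comparisons had 151, 648 and 375 higher and 31, 123 and 52 lower genes, and at 1.5-fold 1810, 2959 and 2418 higher and 1627, 3236 and 2248 lower. *Fmo5* and *Aox1* lie near the floor, and all their ratios are bounds.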
